A study of Mus musculus with 6 samples.

Results

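The genes described here encode the nuclear subunits and the assembly factors of respiratory complexes II, III, IV and V of mitochondria, measured in mouse cumulus-oocyte complexes (COCs) cultured with DMSO or with Torin1. Members were the genes whose symbols begin with Sdhaf, Uqcr, Uqcc, Atp5 or Cox and a digit, together with Sdha to Sdhd, Cyc1 and Atpif1. By that rule 64 of 22180 genes were members: 8 of complex II, 12 of complex III, 25 of complex IV and 19 of complex V. Uqcrh-ps1 and Atp5c1-ps are pseudogenes that match by name, which leaves 62 genes. Cox6c, Uqcr10 and Cox11 have only probe sets that also name another gene, so they were not counted as members.

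Both groups came from wildtype females primed with 5 IU of equine chorionic gonadotropin for 46 h. Each group of 100 COCs, oocytes enclosed by their cumulus cells, was cultured with bovine serum albumin (3 mg/ml) and with milrinone (5 µM), which blocks a phosphodiesterase of the oocyte and so holds it in meiotic arrest. One group received Torin1 at 5 µM, which competes with ATP for the active site of MTOR, a kinase that controls growth, and the control group received the vehicle DMSO, with 3 arrays for each group. Mouse age appears in the labels as both 21 and 23 days and culture time as both 14 and 16 h, which could not be settled here. No label states that samples of a group had separate mice or cultures, so the p-values reflect the spread between arrays, possibly only technical spread. The description of Torin1 sample 3 carries the short name of sample 2. That sample stood apart: over all genes, log2 differences between arrays had an SD of 0.204 between Torin1 samples 1 and 2 and of 0.327 and 0.350 between these and sample 3. Values are log2(intensity + 1), and changes are Torin1 minus DMSO on that scale, which understates the change of dim genes. A gene was called at a limma adjusted p below 0.05 over all 22180 genes.

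The respiratory chain passes electrons from metabolic fuels to oxygen in the inner mitochondrial membrane. Complex II, succinate dehydrogenase, also belongs to the citric acid cycle and feeds electrons into coenzyme Q. Complex III passes them to cytochrome c, complex IV (cytochrome c oxidase) passes them to oxygen, and complex V, the ATP synthase, uses the resulting proton gradient to make ATP. Complexes III, IV and V combine nuclear-encoded subunits with a few encoded by mitochondrial DNA, whereas complex II is entirely nuclear-encoded, and each needs dedicated assembly factors. In follicles the oocyte takes up pyruvate supplied by its cumulus cells and oxidises it in its own mitochondria.

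Transcripts of complexes II to V were mostly lower with Torin1, by modest amounts. A lower level was called for 23 of the 64 members (35.9%), a higher level for 0, and 41 passed neither way, against 6.94% of all genes called lower and 5.13% called higher. Members had bright probe sets, and among the 3364 genes at or above the median level of the 62 members, 12.8% were called lower and 12.7% higher. At an unadjusted p below 0.05 in limma, 38 members were lower and 0 higher, against 12.7% and 11.3% of all genes. The change was below 0 for 55 of 64 members, compared with 47.2% of all genes and 44.1% of those bright genes. Its median was -0.32, a change of -19.7% in (intensity + 1), whereas the median of all genes was 0.0098. One gene, Cox20, fell by 1.72, and the other 22 called members fell by 0.34 to 0.73.

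All 3 Torin1 values lay below all 3 DMSO values for 41 of 64 members, among them the 23 called members, against 14.3% of all genes and 23.5% of genes at or above the median level of the 62 members. The reverse held for 1 member, Cox6a2, against 14.3% of all genes. Taking each of the 62 genes relative to its own DMSO mean, the median deviation was 0.046, -0.040 and -0.019 in DMSO samples 1, 2 and 3 and -0.348, -0.264 and -0.299 in Torin1 samples 1, 2 and 3. All 3 Torin1 arrays were shifted the same way, including sample 3. The count of 23 fell to 12, 15 and 11 without DMSO sample 1, 2 or 3 and to 14 and 15 without Torin1 sample 1 or 2, while 21 members were called lower without Torin1 sample 3. The share of all genes called lower, 6.94% with all 6 arrays, was 4.6%, 5% and 3.81% without DMSO sample 1, 2 or 3. It was 4.6%, 5.72% and 7.64% without Torin1 sample 1, 2 or 3. In no leave-out was a member called higher.

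**Figure D1:**
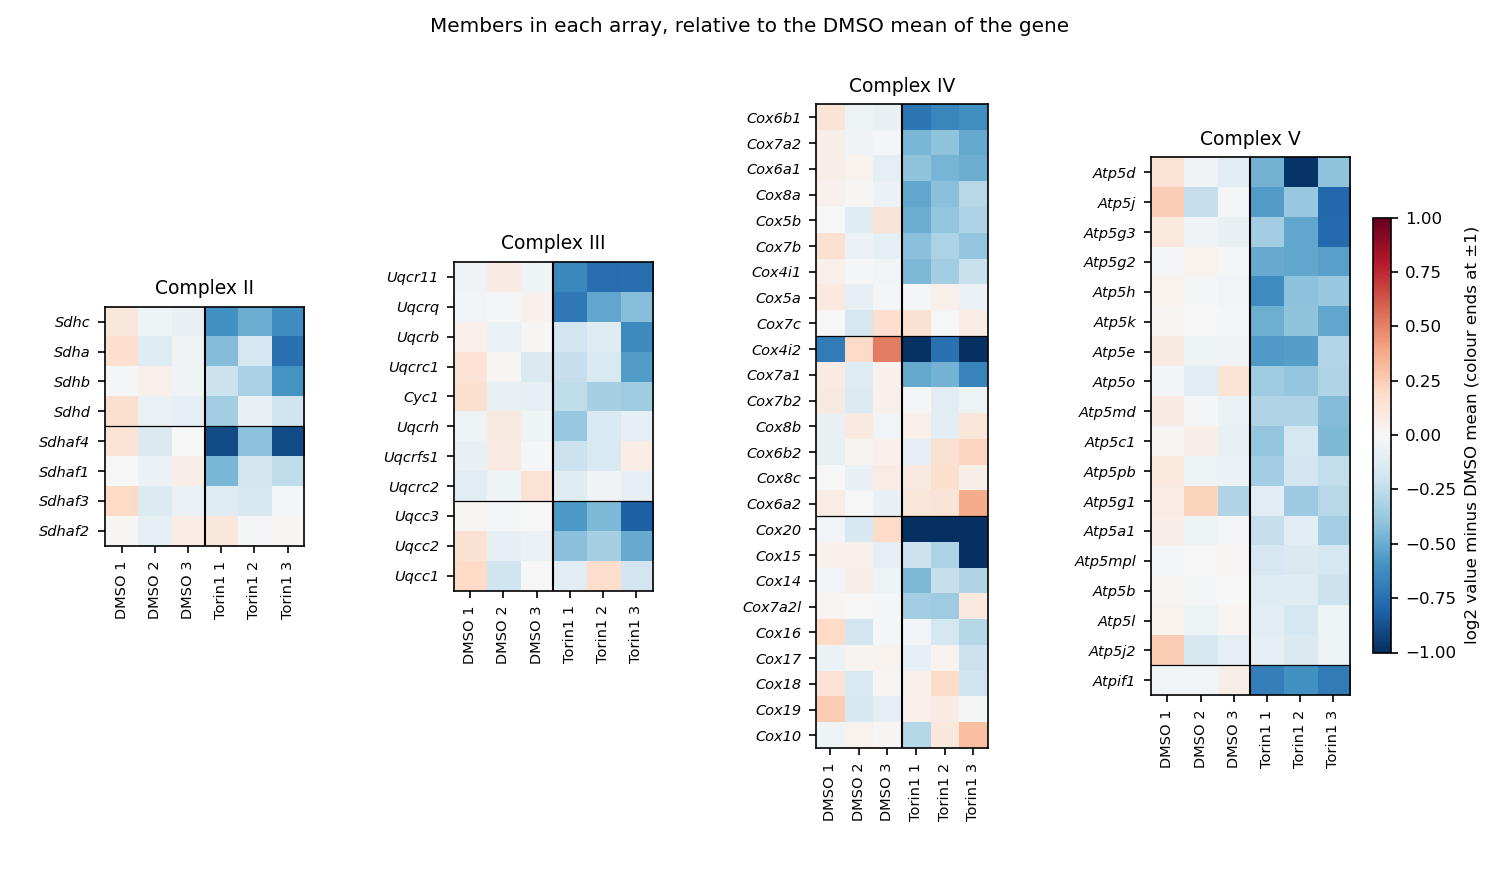
Each row is a gene and each column an array, with colour for the log2 value minus the gene's DMSO mean, from blue (lower) to red (higher), ending at 1 on either side; lines separate subunits, the inhibitor Atpif1, tissue-restricted isoforms and assembly factors. Most subunit rows are blue in all 3 Torin1 columns, while Cox5a, Cox7c and, apart from Cox4i2 and Cox7a1, the restricted isoforms are pale.

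COCs hold 2 cell types, and the arrays read their RNA together. Of 18 granulosa and cumulus markers 13 were called lower and 1 higher, against 6.94% and 5.13% of all genes. Their summed intensity was 6638 to 6748 in DMSO and 3696 to 4127 in Torin1. All 20 oocyte markers had a change above 0, with 2 called higher, and summed to 8794 to 9384 in DMSO and 9741 to 10760 in Torin1. Markers of theca and stroma (11 measured, 2 lower and 1 higher) summed to 326.2 to 381.4 and 209.4 to 236.4, and those of blood, immune and endothelial cells (11 measured, 0 lower and 2 higher) to 164.8 to 165.2 and 216.8 to 340.8. Most of the last difference lay in the endothelial marker Cdh5, at 4.15, 4.08 and 4.07 in DMSO and 6.54, 7.22 and 5.54 in Torin1, and without it the other 10 summed to 148.5 to 149.2 and 162.7 to 192.9. The counts of 0 to 2 called in the oocyte, theca and blood lists are too small to tell from the shares of all genes. No marker was at 0, the theca marker Cyp17a1 was at 2.82 ± 0.13 and the leukocyte marker Ptprc at 3.04 ± 0.12 in DMSO (SD, n = 3 each), both below the median gene, 4.17. Other markers lay above it: 4 of 11 for theca and stroma and 4 of 11 for blood, immune and endothelial cells. Ptch1, the brightest for theca and stroma, had a mean of 7.58 in DMSO and 6.05 in Torin1. Pecam1, an endothelial marker, had means of 5.69 and 5.89. The part of these shifts in the results below was not tested, and in bulk samples fewer cells of a type and less RNA per cell cannot be told apart.

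Promoters of respiratory chain genes are known for binding sites of the factors NRF1, GABPA (of the ETS family), YY1 and the estrogen-related receptors (ERR). Because so many members moved together, 4 fixed motifs of 7 bases were counted on both strands in windows from 250 bases before to 50 bases after the start site, taken from RefSeq on GRCm38.p6. Windows were matched for 49 of 62 members (53 windows). CCGGAAG (GABPA/ETS) stood in 22 of 53 windows (41.5%), compared with 11.4% of the 20520 windows of genes measured here. GCATGCG (the core of the NRF1 site, whose 2 strands overlap) stood in 15.1% of member windows and 4.58% of all these windows, AAGATGG (YY1) in 13.2% and 6.36%, and AAGGTCA (ERR) in 13.2% and 4.06%. Called and uncalled members both held them: CCGGAAG was in 9 of 20 windows of called members and 13 of 33 of the others, and AAGGTCA in 5 of 20 and 2 of 33. None of the 4 windows of restricted complex IV isoforms held any of the 4 motifs. Each motif stood in 4.06% to 11.4% of the windows of genes measured here, so 0 among 4 is near these shares. These shares were not tested, a match is no evidence of binding, and no factor was assayed. The sequences are the 250 bases before the start site, 5′ to 3′ on the gene's strand and with matches in capitals, for called members with a single window and a match in these bases, up to 2 of each complex with the smallest adjusted p; no complex II member met that rule.
Uqcr11, chr10:80406822-80407071, - strand: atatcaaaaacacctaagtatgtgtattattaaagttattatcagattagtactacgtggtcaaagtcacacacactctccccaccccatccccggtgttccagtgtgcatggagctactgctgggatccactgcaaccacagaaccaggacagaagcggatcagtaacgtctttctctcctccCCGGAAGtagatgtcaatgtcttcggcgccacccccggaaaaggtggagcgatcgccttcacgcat
Uqcc3, chr19:8880934-8881183, - strand: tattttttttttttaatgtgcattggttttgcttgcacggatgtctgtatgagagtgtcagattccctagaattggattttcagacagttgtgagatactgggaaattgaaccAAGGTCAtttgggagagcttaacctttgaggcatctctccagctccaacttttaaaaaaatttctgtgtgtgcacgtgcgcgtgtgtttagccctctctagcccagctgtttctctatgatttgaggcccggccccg
Cox20, chr1:178318903-178319152, + strand: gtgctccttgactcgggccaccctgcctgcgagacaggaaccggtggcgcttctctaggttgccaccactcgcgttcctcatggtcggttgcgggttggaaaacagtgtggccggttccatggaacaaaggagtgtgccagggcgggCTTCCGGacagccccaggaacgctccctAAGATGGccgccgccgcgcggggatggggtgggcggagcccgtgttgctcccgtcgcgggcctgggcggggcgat
Cox6b1, chr7:30626115-30626364, - strand: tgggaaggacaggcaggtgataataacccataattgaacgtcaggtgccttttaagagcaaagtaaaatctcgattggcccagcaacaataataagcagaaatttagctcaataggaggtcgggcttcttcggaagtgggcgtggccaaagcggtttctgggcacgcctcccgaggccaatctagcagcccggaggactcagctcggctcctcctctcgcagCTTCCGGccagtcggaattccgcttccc
Atpif1, chr4:132535415-132535664, - strand: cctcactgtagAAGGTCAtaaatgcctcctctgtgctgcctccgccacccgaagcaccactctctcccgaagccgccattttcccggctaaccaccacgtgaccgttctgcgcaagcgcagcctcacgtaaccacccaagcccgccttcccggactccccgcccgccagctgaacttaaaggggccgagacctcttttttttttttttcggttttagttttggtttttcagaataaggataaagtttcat
Atp5g2, chr15:102671048-102671297, - strand: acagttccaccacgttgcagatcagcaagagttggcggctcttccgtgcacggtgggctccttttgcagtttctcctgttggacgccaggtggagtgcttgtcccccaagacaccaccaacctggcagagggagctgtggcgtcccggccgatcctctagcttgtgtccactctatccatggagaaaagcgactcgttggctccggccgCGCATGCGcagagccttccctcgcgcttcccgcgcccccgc
Uqcr11 has CCGGAAG and Cox6b1 its reverse complement in the last 100 bases before the start, Cox20 has a reverse CCGGAAG and an AAGATGG, Uqcc3 and Atpif1 have AAGGTCA, and Atp5g2 has GCATGCG on both strands in 1 run.

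Complex II was lower in 1 of its 4 subunits and 1 of its 4 assembly factors (25% of its members, against 6.94% of all genes). Sdhc, which encodes a membrane anchor that holds the heme, was at 4.95, 4.78 and 4.76 in DMSO samples 1, 2 and 3 and at 4.22, 4.33 and 4.20 in Torin1 samples 1, 2 and 3. The groups did not overlap, and Sdhc fell by 0.58 ± 0.084 (SE; adjusted p = 0.00593). Sdhaf4, a factor that assists assembly of the catalytic flavoprotein, was at 6.31, 6.04 and 6.18 with DMSO and 5.29, 5.77 and 5.29 with Torin1, and it fell by 0.73 ± 0.15 (adjusted p = 0.0215). Torin1 sample 2 was the highest of the 3 treated arrays for Sdhaf4, and the call was lost without DMSO sample 1, DMSO sample 3 or Torin1 sample 1 (adjusted p up to 0.0792).

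The other subunits of complex II were not called. Sdha, the flavoprotein that oxidises succinate, was at 8.14, 7.84 and 7.94 in DMSO and 7.54, 7.80 and 7.22 in Torin1, a change of -0.45 ± 0.16 (adjusted p = 0.125). Sdhb, the iron-sulfur subunit, was at 7.37, 7.43 and 7.35 in DMSO against 7.17, 7.06 and 6.79 in Torin1, and Sdhd, the other membrane anchor, at 7.04, 6.81 and 6.78 in DMSO against 6.53, 6.80 and 6.67 in Torin1. Sdhb changed by -0.38 ± 0.11 (adjusted p = 0.0696) and Sdhd by -0.21 ± 0.11 (adjusted p = 0.313). The DMSO and Torin1 values of Sdha and Sdhb did not overlap, whereas those of Sdhd did. For Sdha the Torin1 values spread from 7.22 in sample 3 to 7.80 in sample 2, close to the lowest DMSO value, 7.84. Among the remaining factors Sdhaf1 changed by -0.30 ± 0.093, Sdhaf3 by -0.10 ± 0.11 and Sdhaf2, which attaches the flavin to Sdha, by 0.039 ± 0.080 (adjusted p = 0.0909, 0.682 and 0.867).

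In complex III 2 of 8 subunits and 2 of 3 assembly factors fell (33.3% of its members, against 6.94% of all genes). Uqcr11, a small accessory subunit, was at 6.92, 7.04 and 6.92 in DMSO and 6.32, 6.20 and 6.21 in Torin1. It fell by 0.72 ± 0.077 (adjusted p = 0.00171), the smallest adjusted p of the complex. Uqcrq, a small subunit near the ubiquinone site, was at 8.95, 8.96 and 9.01 in DMSO against 8.26, 8.46 and 8.55 in Torin1 and fell by 0.55 ± 0.093 (adjusted p = 0.0104). Both kept their call when any 1 array was left out.

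The other 6 subunits of complex III were not called, among them the catalytic Cyc1 and Uqcrfs1. Cyc1, cytochrome c1, was at 8.64, 8.41 and 8.40 in DMSO and 8.22, 8.15 and 8.13 in Torin1 and changed by -0.31 ± 0.091 (adjusted p = 0.0732). Uqcrfs1, the Rieske iron-sulfur protein, was at 5.57, 5.73 and 5.64 in DMSO against 5.43, 5.49 and 5.72 in Torin1, with overlapping groups and a change of -0.10 ± 0.10 (adjusted p = 0.682). Uqcrc1, a core protein, was at 8.50, 8.37 and 8.21 in DMSO against 8.12, 8.20 and 7.80 in Torin1. It and its partner Uqcrc2 changed by -0.32 ± 0.13 and -0.082 ± 0.088 (adjusted p = 0.193 and 0.698), and the values of Uqcrc2 overlapped. Uqcrb and Uqcrh (the hinge protein) changed by -0.32 ± 0.14 and -0.21 ± 0.10, neither called (adjusted p = 0.228 and 0.266). Uqcrb was at 9.27, 9.15 and 9.23 in DMSO and 9.02, 9.10 and 8.58 in Torin1, with no overlap.

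Uqcc1, Uqcc2 and Uqcc3 encode factors for the making and incorporation of cytochrome b, the mitochondrially encoded subunit. Uqcc3 was at 6.48, 6.46 and 6.48 in DMSO and 5.90, 6.02 and 5.66 in Torin1 and fell by 0.61 ± 0.10 (adjusted p = 0.0102). Uqcc2 was at 7.18, 6.95 and 6.97 in DMSO against 6.61, 6.70 and 6.53 in Torin1 and fell by 0.42 ± 0.093 (adjusted p = 0.0299). Uqcc1, at -0.044 ± 0.14, was not called and its groups overlapped (adjusted p = 0.921). Uqcc2 lost its call whichever array was left out (adjusted p 0.0508 to 0.0877), and Uqcc3 kept it in each case.

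In complex IV 9 of 25 members were called lower (36%, compared with 42.1% of complex V), and they were mostly its general subunits. Of the 9 subunits used in most tissues 7 fell, with a median of -0.40 over the 9. Among 9 assembly factors 1 fell (11.1%), with a median of -0.16. Of 7 isoforms known mainly from muscle, lung or testis 1 fell (14.3%), with a median of 0.023. For comparison, 6.94% of all genes and 12.6% of genes above the median gene were called lower, so a count of 1 in either class is near these shares. The difference between subunits, assembly factors and isoforms was not tested.

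Cox6b1, a subunit on the intermembrane face where 2 copies of the complex meet, was at 7.50, 7.32 and 7.30 in DMSO and 6.64, 6.72 and 6.76 in Torin1. It fell by 0.66 ± 0.085 (adjusted p = 0.00351). Cox7a2 was at 9.48, 9.38 and 9.39 in DMSO against 8.96, 9.01 and 8.90 in Torin1, a fall of 0.46 ± 0.073, and Cox6a1 at 9.89, 9.87 and 9.73 in DMSO against 9.43, 9.36 and 9.33 in Torin1, a fall of 0.46 ± 0.077 (adjusted p = 0.00817 and 0.0106). The groups lay apart for these 3 genes, which stayed called in every leave-out. Cox8a, Cox5b, Cox7b and Cox4i1 fell by 0.40 ± 0.087, 0.40 ± 0.094, 0.38 ± 0.090 and 0.34 ± 0.083 (adjusted p = 0.0255, 0.0348, 0.0375 and 0.0424). Cox4i1, the main isoform of the largest nuclear subunit, was at 9.75, 9.68 and 9.67 in DMSO and 9.26, 9.36 and 9.48 in Torin1, and Cox8a at 7.33, 7.30 and 7.23 in DMSO against 6.76, 6.87 and 7.01 in Torin1. Those 4 calls depended on single arrays. Cox7b lost its call whichever array was left out (adjusted p up to 0.112), Cox8a and Cox4i1 in every leave-out but that of Torin1 sample 3 (up to 0.0916 and 0.139), and Cox5b without DMSO sample 1, DMSO sample 3, Torin1 sample 1 or Torin1 sample 2 (up to 0.120). Cox7b was measured by another, dimmer probe set, at 3.84 in DMSO and 3.85 in Torin1, so the mean of its probe sets changed less (-0.19; adjusted p = 0.32).

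Cox5a and Cox7c were the general subunits with no call. Cox5a, which faces the matrix, was at 8.46, 8.28 and 8.34 in DMSO and 8.34, 8.41 and 8.30 in Torin1, a change of -0.0083 ± 0.080 (adjusted p = 0.976), with a 95% interval of -0.20 to 0.18. Cox7c changed by 0.076 ± 0.11 (adjusted p = 0.782), with an interval of -0.17 to 0.32. Both changes were small enough that their sign turned in some leave-outs, and both genes were singled out after their values were seen.

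**Figure D2:**
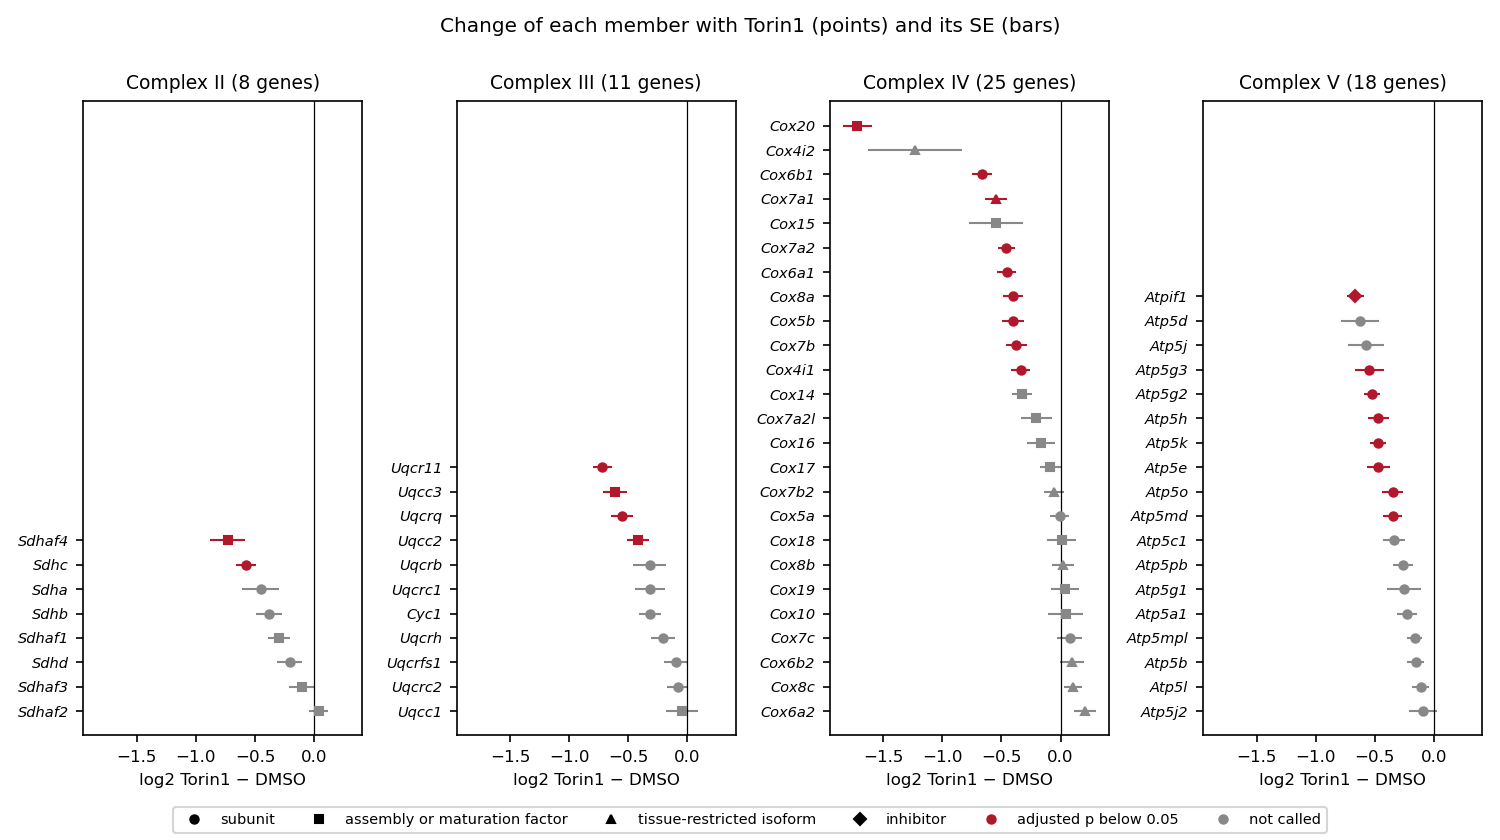
Log2 change of each of the 62 genes (Torin1 minus DMSO, points) with its SE (bars), by complex; red marks an adjusted p below 0.05, grey no call, and the marker shape gives the role. Cox20, at -1.72, lies apart from the other called genes, which are between -0.73 and -0.34.

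Cox20 showed the largest fall of all members. Its product is a chaperone of the mitochondrially encoded subunit 2 during assembly of complex IV. Cox20 was at 6.25, 6.12 and 6.47 in DMSO samples 1, 2 and 3 and at 4.55, 4.74 and 4.40 in Torin1 samples 1, 2 and 3, so each treated array lay more than 1 log2 unit below the lowest control. It fell by 1.72 ± 0.13 (SE; adjusted p = 0.000388), or to 0.304 times its DMSO level of (intensity + 1). The change was between -1.81 and -1.26 (the latter with a pseudocount of 16) in the 13 alternatives, and it was called in each.

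The other 8 assembly factors of complex IV were not called. Cox14, which acts in the making of the mitochondrially encoded subunit 1, just missed the threshold at -0.33 ± 0.085 (adjusted p = 0.0509; 0.0362 with a pseudocount of 16), with no overlap between groups. Cox15, an enzyme of heme A synthesis, was at 6.22, 6.22 and 6.09 in DMSO and 5.96, 5.87 and 5.06 in Torin1 and changed by -0.55 ± 0.23 (adjusted p = 0.2). Torin1 sample 3 was its lowest array, and without it the change was -0.26. Cox10, the preceding heme A enzyme, changed by 0.042 ± 0.15 (adjusted p = 0.931). Cox17, a copper chaperone, was at 7.67, 7.75 and 7.76 in DMSO against 7.64, 7.76 and 7.52 in Torin1 and changed by -0.087 ± 0.087 (adjusted p = 0.674). Cox19, another copper factor, Cox18, a membrane insertase, and Cox16 changed by 0.037 ± 0.12, 0.0094 ± 0.13 and -0.16 ± 0.12. Cox7a2l, a relative of the Cox7a subunits that joins complexes III and IV in supercomplexes, was at 4.95, 4.92 and 4.92 in DMSO and 4.58, 4.57 and 5.02 in Torin1. It was not called at -0.20 ± 0.13 (adjusted p = 0.435), but without Torin1 sample 3, its highest array, it was at -0.35 (adjusted p = 0.0246).

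Tissue-restricted isoforms of complex IV varied in other ways. Cox7a1, the heart and skeletal muscle isoform of Cox7a, was at 4.83, 4.62 and 4.79 in DMSO and 4.24, 4.28 and 4.08 in Torin1 and fell by 0.55 ± 0.094 (adjusted p = 0.0108), a call lost without DMSO sample 3 (0.0514). Cox4i2, the lung isoform of Cox4, was at 5.26, 6.16 and 6.47 in DMSO against 4.97, 5.21 and 3.997 in Torin1. Its change of -1.24 ± 0.40 was not called (adjusted p = 0.1), and the arrays within each group differed by more than 1 unit, with DMSO sample 1 at 5.26 only just above Torin1 sample 2 at 5.21. Cox6a2, the muscle isoform of Cox6a, was at 4.25, 4.17 and 4.10 in DMSO against 4.30, 4.30 and 4.54 in Torin1, higher in each Torin1 array but not called at 0.21 ± 0.094 (adjusted p = 0.244). The testis isoform Cox6b2 was at 6.62, 6.72 and 6.74 in DMSO against 6.61, 6.85 and 6.91 in Torin1 with a change of 0.10 ± 0.10 (adjusted p = 0.673), while its general counterpart Cox6b1 fell. Cox8b, Cox8c and Cox7b2 lay below the median gene and changed by 0.023 ± 0.091, 0.10 ± 0.076 and -0.055 ± 0.086, none called.

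Complex V had a change below 0 in all 19 members, against 47.2% of all genes, and a median of -0.35. Of the 19, 8 were called lower (42.1%), against 6.94% of all genes. The inhibitor gene Atpif1 and 7 of 17 subunit genes fell. In 15 of the 17 subunits all 3 Torin1 values lay below all 3 DMSO values. That held for 14.3% of all genes and 23.5% of genes at or above the median level of the 62 members.

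Atpif1, whose product blocks hydrolysis of ATP by the synthase when the proton gradient collapses, was at 8.23, 8.23 and 8.31 in DMSO and 7.57, 7.65 and 7.56 in Torin1. It fell by 0.66 ± 0.072 (adjusted p = 0.00176), the smallest adjusted p of complex V, and was called under all 13 alternatives. The F1 head, which makes ATP, and its central stalk had 1 call among 5 genes (20%, against 6.94% of all genes). Atp5b, the catalytic β subunit, was at 10.36, 10.32 and 10.34 in DMSO against 10.22, 10.22 and 10.12 in Torin1 and changed by -0.15 ± 0.070 (adjusted p = 0.242), a small change that no alternative called. Atp5a1, the α subunit, changed by -0.23 ± 0.087 and Atp5c1, the γ subunit, by -0.34 ± 0.095 (adjusted p = 0.167 and 0.0648), and Atp5c1 was called without Torin1 sample 2 (0.0368). Atp5d, the δ subunit, just missed the threshold at -0.62 ± 0.16 (adjusted p = 0.0511) and was called without Torin1 sample 3 (0.0281). Atp5e, the ε subunit, was at 8.63, 8.49 and 8.51 in DMSO against 7.98, 7.995 and 8.25 in Torin1, with Torin1 sample 3 closest to the controls. It fell by 0.47 ± 0.10 (adjusted p = 0.024) but was called in only 1 leave-out, that of Torin1 sample 3 (adjusted p otherwise up to 0.0879).

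The membrane part Fo and the peripheral stalk held 6 of the 7 called subunit genes among 12 (50%, against 6.94% of all genes). Their median change, -0.35, was close to that of the 5 genes of F1 and its central stalk, -0.34. The difference in calls between the 2 parts was not tested. Atp5g1, Atp5g2 and Atp5g3 encode the same mature c subunit, the proton-carrying ring, from separate genes. Atp5g2 was at 8.19, 8.25 and 8.19 in DMSO and 7.71, 7.69 and 7.67 in Torin1, a fall of 0.52 ± 0.067 (adjusted p = 0.00365), and Atp5g3 was at 7.51, 7.37 and 7.32 in DMSO against 7.05, 6.88 and 6.63 in Torin1, a fall of 0.55 ± 0.12 (adjusted p = 0.0292). Atp5g1 was dimmer, at 3.21, 3.36 and 2.83 in DMSO against 3.02, 2.77 and 2.86 in Torin1 with overlap, and its change of -0.25 ± 0.15 was not called (adjusted p = 0.382). Of the c subunit genes, Atp5g2 was called in all 13 alternatives. Atp5g3 lost the call without any 1 DMSO sample or without Torin1 sample 2 (adjusted p up to 0.103).

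Among the accessory and stalk subunits, Atp5k (subunit e, at the dimer interface) was at 7.22, 7.20 and 7.19 in DMSO and 6.71, 6.80 and 6.68 in Torin1 and fell by 0.47 ± 0.070 (adjusted p = 0.00627). Atp5h, subunit d of the stalk, was at 8.06, 8.01 and 7.999 in DMSO against 7.40, 7.61 and 7.65 in Torin1. It fell by 0.47 ± 0.088, and Atp5o, the protein that joins the stalk to F1, by 0.35 ± 0.087 (adjusted p = 0.0152 and 0.0454). Atp5md, also of the dimer region, was at 10.11, 10.004 and 9.96 in DMSO against 9.72, 9.73 and 9.59 in Torin1 and fell by 0.35 ± 0.080 (adjusted p = 0.0337). Atp5k stayed called in every leave-out. Atp5h lost the call without any 1 DMSO sample (up to 0.0602), and Atp5md and Atp5o lost it whichever array was left out (up to 0.117 and 0.139). A dimmer probe set of Atp5h went the other way, from 3.69 to 3.93, and the mean of both probe sets was not called (-0.12; adjusted p = 0.469).

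The uncalled subunits of Fo and the stalk were Atp5j (-0.58 ± 0.15; adjusted p = 0.0527, and 0.0485 without DMSO sample 2), Atp5pb (-0.26 ± 0.084), Atp5mpl (-0.16 ± 0.065), Atp5l (-0.11 ± 0.073), Atp5j2 (-0.093 ± 0.12) and Atp5g1. Atp5mpl differed little between arrays of a group, at 8.57, 8.59 and 8.59 in DMSO and 8.42, 8.44 and 8.41 in Torin1. The arrays of Atp5l, subunit g, were at 10.36, 10.28 and 10.34 in DMSO against 10.22, 10.16 and 10.28 in Torin1. These groups did not overlap, yet the changes were too small to pass (adjusted p = 0.188 and 0.462), except that Atp5mpl did with a pseudocount of 16 (0.0155).

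**Figure D3:**
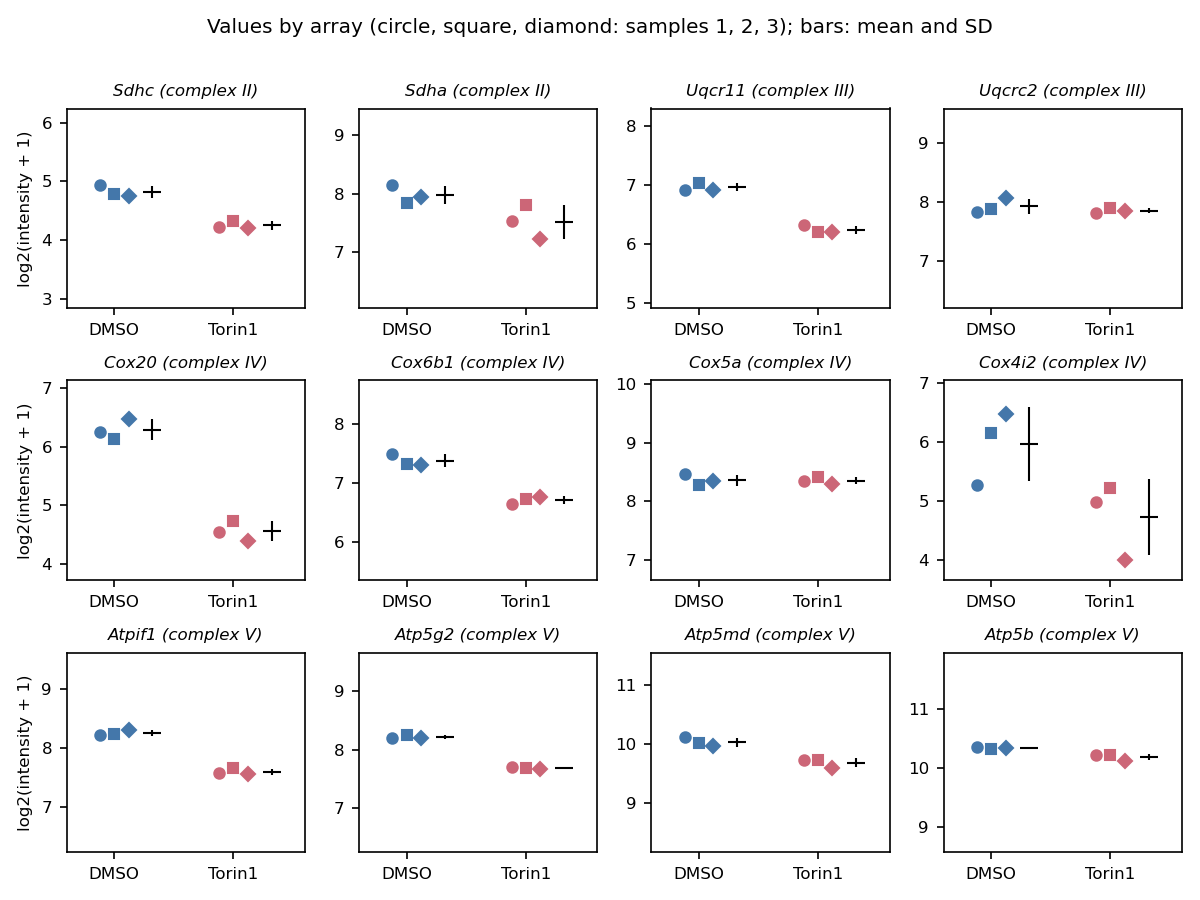
Log2(intensity + 1) of 12 members in each array (circle, square and diamond for samples 1, 2 and 3; bars for the mean and SD), on axes of equal span. Cox20 shows the widest gap between the groups, the arrays of Cox4i2 scatter by over 1 unit within a group, and the groups of Cox5a and Uqcrc2 overlap.

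Probe sets that name 1 of these genes together with another gave values that cannot be assigned to either. The brighter set for Cox6c and Gm6265 was at 9.08, 8.92 and 8.95 in DMSO and 7.998, 8.23 and 8.23 in Torin1, a fall of 0.83 ± 0.094 (adjusted p = 0.00645 over all probe sets), and that for Uqcr10 and Gm6293 fell by 0.71 ± 0.099 (adjusted p = 0.013). The set for Tom1l1 and Cox11 changed by 0.14 ± 0.23 and was not called (adjusted p = 0.868). Of the 7 members with several probe sets of their own, Atp5h and Cox7b are the ones whose sets differed in sign. Nuclear respiratory chain genes have many processed pseudogenes, and near-identical copies can share signal. The pseudogenes Uqcrh-ps1 and Atp5c1-ps were at 2.18 ± 0.036 and 2.72 ± 0.17 in DMSO, below the median gene, and neither was called.

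Transcripts of subunits encoded by mitochondrial DNA mostly had small positive changes. Of 10 measured 9 had a change above 0, with 1 called higher, 0 lower and a median of 0.21, and at an unadjusted p below 0.05 in limma 0 were lower and 4 higher, against 12.7% and 11.3% of all genes. With 6.94% of all genes called lower, a count of 0 among 10 is near the share of all genes. For complex IV, COX1 was at 10.80, 10.67 and 10.66 in DMSO and 10.83, 10.84 and 10.86 in Torin1 and changed by 0.13 ± 0.074 (adjusted p = 0.345), and COX3 changed by 0.077 ± 0.091 (adjusted p = 0.734). For complex III, CYTB (cytochrome b) was at 9.11, 9.09 and 9.07 in DMSO against 9.43, 9.54 and 9.18 in Torin1, higher in each Torin1 array but not called at 0.30 ± 0.10 (adjusted p = 0.127), although it was without Torin1 sample 3 (0.40; adjusted p = 0.0202). The called gene was ND2 of complex I, which rose by 0.43 ± 0.11 (adjusted p = 0.0491), and it lost the call without DMSO sample 2, DMSO sample 3, Torin1 sample 1 or Torin1 sample 2 (up to 0.163), with a pseudocount of 16 and with arrays centred on their median.

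Some assembly and translation factors of these complexes whose symbols lie outside the rule also fell. Of 24 measured 7 fell (29.2%), 0 rose and 17 were not called, with a median of -0.17. Among all genes 6.94% were called lower and 5.13% higher. Among genes above the median gene, where 23 of the 24 lay, 12.6% were called lower. Coa3, which with Cox14 acts in the making of COX1, was at 6.38, 6.31 and 6.61 in DMSO and 5.46, 5.86 and 5.13 in Torin1 and fell by 0.95 ± 0.19 (adjusted p = 0.018). Pet100, another complex IV factor, fell by 0.78 ± 0.14, and Tmem242, an ATP synthase assembly factor, by 0.68 ± 0.10 (adjusted p = 0.0114 and 0.00648). Higd2a, a factor of complex IV and supercomplexes, fell by 0.62 ± 0.13 (adjusted p = 0.0205). The others were Fmc1 and Atpaf2, also of complex V, and Bcs1l, a complex III factor that inserts the Rieske protein, which fell by 0.59 ± 0.087, 0.50 ± 0.12 and 0.55 ± 0.13 (adjusted p = 0.00626, 0.0329 and 0.0336). Pet100, Tmem242 and Fmc1 stayed called in every leave-out. Coa3 lost its call without DMSO sample 1, DMSO sample 3 or Torin1 sample 1 (up to 0.0736) and Higd2a without any 1 DMSO sample or Torin1 sample 1 (up to 0.0816). Atpaf2 kept its call only without Torin1 sample 2, and Bcs1l only without DMSO sample 2 or Torin1 sample 2 (up to 0.106 and 0.122 otherwise).

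Among genes of electron carriers and coenzyme Q synthesis, 5 of 17 fell (29.4%) and 1 rose (5.88%), against 6.94% and 5.13% of all genes. Coq8a, an atypical kinase-like protein of coenzyme Q synthesis, was at 6.19, 6.04 and 6.15 in DMSO and 4.71, 4.31 and 4.65 in Torin1 and fell by 1.57 ± 0.12 (adjusted p = 0.000438). Coq10b, a coenzyme Q binding protein, went the other way, from 6.02, 5.82 and 5.94 to 6.92, 7.09 and 7.37, a rise of 1.20 ± 0.13 (adjusted p = 0.00162). Etfdh, which passes electrons from fatty acid oxidation to coenzyme Q, fell by 0.97 ± 0.13 (adjusted p = 0.00429), and Coq2 by 0.63 ± 0.13 (adjusted p = 0.0224). Cycs, the somatic cytochrome c, was not called at -0.019 ± 0.11 (adjusted p = 0.96). Coq2 lost its call without DMSO sample 2 or DMSO sample 3 (up to 0.0894).

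Among 30 known regulators of respiratory chain genes 0 fell and 1 rose, against 6.94% and 5.13% of all genes, with a median change of 0.034. At an unadjusted p below 0.05 in limma 2 of the 30 were lower and 6 higher, against 12.7% and 11.3% of all genes. The lower count is a smaller share than among all genes and the higher count a larger one, and neither difference was tested. The transcription factor gene Myc, named after its values were seen, had the largest change, with 8.04, 7.63 and 7.52 in DMSO and 6.07, 5.76 and 7.82 in Torin1. Torin1 sample 3 lay among the controls, and Myc was not called at -1.18 ± 0.50 (adjusted p = 0.21), whereas without that sample it was called lower at -1.82 (adjusted p = 0.00103). The called gene was Pprc1, a coactivator related to PGC-1α, which rose by 0.67 ± 0.16 (adjusted p = 0.038) and was called in only 1 leave-out, that of DMSO sample 1 (adjusted p otherwise up to 0.132). Ppargc1a, the PGC-1α gene, lay below the median gene at 2.71 ± 0.16 and 2.62 ± 0.047. Nrf1 changed by 0.19 ± 0.10, Gabpa by 0.27 ± 0.10, Yy1 by 0.31 ± 0.11, Esrra by 0.12 ± 0.10 and Tfam, the mitochondrial DNA packaging factor, by 0.48 ± 0.24 (adjusted p = 0.308, 0.129, 0.124, 0.576 and 0.301). Of 14 genes for abundant mitochondrial proteins outside the chain, 1 fell: Vdac1, an outer membrane channel, by 0.40 ± 0.10 (adjusted p = 0.0373), called in only 1 leave-out, that of DMSO sample 2 (adjusted p otherwise up to 0.134). The median of the 14 was -0.16, and 1 of 14 (7.14%) is near the 6.94% of all genes called lower.

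Genes with symbols beginning Nduf, most but not all of them of complex I, had 21 of 42 called lower, 0 higher and a median of -0.42. Members of complexes II to V had 23 of 64 and -0.32. Genes of the mitochondrial ribosome had 10 of 71 called lower (14.1%), 1 higher and a median of -0.18. Citric acid cycle genes had 2 of 13 lower (15.4%) and a median of -0.21. Among all genes 6.94% were called lower, and among genes above the median gene 12.6%. The last share is near those of the ribosome and citric acid cycle genes, of which 67 of 71 and 13 of 13 lay above the median gene. These classes share the same arrays, and the differences between them were not tested. By class within complexes II to V, 17 of 38 subunits were called lower with a median of -0.35, against 4 of 16 assembly factors with a median of -0.18.

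**Figure D4:**
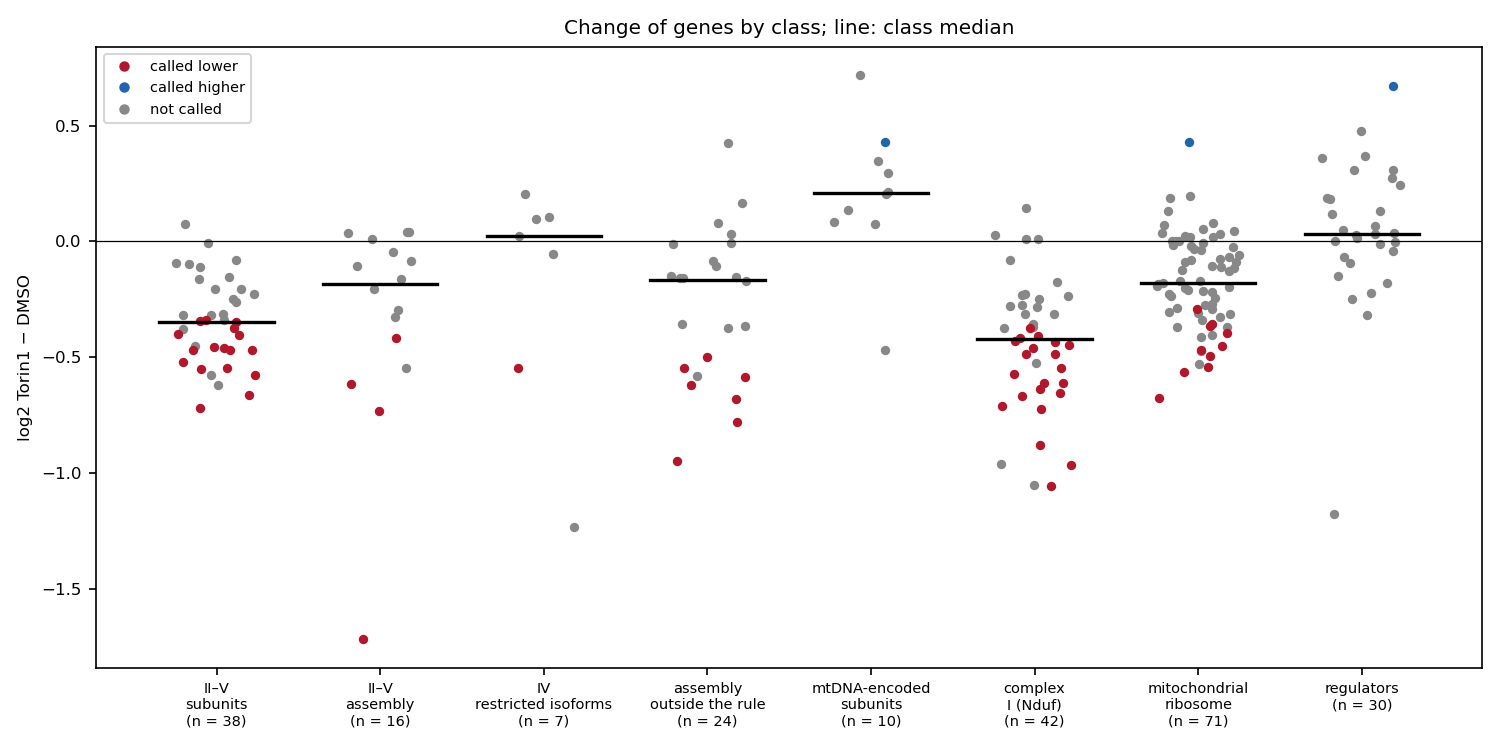
Log2 change (Torin1 minus DMSO) of each gene by class, with red for called lower, blue for called higher, grey for not called and a black line at the class median. The 38 subunits of complexes II to V have a median of -0.35, while the 10 subunits encoded by mitochondrial DNA have one of 0.21 and the 30 regulators one of 0.034.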

How the data were processed

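6 arrays, 3 of COCs cultured with DMSO and 3 with Torin1, were analysed. The submitters' processing notes name GCOS, Affymetrix Expression Console 1.1 and RMA, and the deposited intensities, from their range, are on a linear scale after that summary. RNA was amplified from small input per the labels' protocols, and its effect on levels was not tested. From the deposited intensities log2(intensity + 1) was computed. Of 41345 probe sets, 25335 were in the gene table, 23521 naming 1 gene and 1814 several. Each of 22180 genes was represented by its brightest probe set, by the mean of the 6 arrays. limma 3.58.1 in R 4.3.3 compared the groups, with p-values adjusted by Benjamini-Hochberg across the 22180 genes, and the code was tested on simulated data. The labels do not state that sample numbers mark shared litters or days, so no block was used in the main comparison. Correlations of same-numbered deviations were -0.207, -0.299 and -0.148, which with 3 arrays per group cannot settle whether the numbers pair the arrays. Every member was accounted for; full values went to up to 6 called members of each complex by adjusted p and to 23 chosen subunits and factors, and up to 4 called genes of each other list and 6 regulators were named. Cycs, Myc, Cdh5, COX1, COX3, CYTB, Fmc1, Atpaf2, Bcs1l and the array values of other members were added after their values were seen. Members and lists were chosen with earlier results of these data known. The number of arrays limits the precision. Promoter windows came from RefSeq. Alternatives were another pseudocount, a filter on dim genes, the mean of probe sets, centring, another eBayes setting, a block, merging Torin1 samples 2 and 3, single arrays left out and, added after seeing the data, the members without pseudogenes.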

Additional observations from a re-analysis of the deposited data

How the results depend on the processing

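The count of 23 members called lower was 17 to 25 under 7 alternatives (a pseudocount of 16, only genes above the median gene, the mean of a gene's probe sets, arrays centred on their median, eBayes with trend and robust, Torin1 samples 2 and 3 taken as 1 sample, and no pseudogenes). The share of all tested genes called lower was 6.08% to 14.2% in these runs, highest with only genes above the median gene. No member was called higher in any alternative run. With the replicate number as a block the count was 11, against 4.09% of all genes called lower. Of these 1 was in complex II, 3 in complex III, 3 in complex IV and 4 in complex V. The labels do not state that the numbers pair the samples (correlations -0.207, -0.299 and -0.148), and the block removes residual degrees of freedom. Leaving out 1 array at a time gave 11 to 21 members, against 3.81% to 7.64% of all genes called lower. There were 1 to 2 in complex II, 3 in complex III, 4 to 9 in complex IV and 3 to 7 in complex V. Each leave-out has fewer arrays, and the cause of the lower counts was not tested. The median change of the members was -0.35 to -0.28 over these leave-outs and -0.34 to -0.28 over the other alternatives. Of the members and the named genes of the other lists, the called ones kept their direction in each alternative, while 11 uncalled ones with changes near 0 turned in some. With centred arrays Cox5a turned to 0.0146, Cycs to 0.0044 and Uqcrh-ps1 to 0.0145, and with Torin1 samples 2 and 3 as 1 sample Cox10 turned to -0.040. Over the single-array leave-outs the change was -0.175 to 0.0322 for Atp5j2, -0.0862 to 0.206 for Cox10, -0.0797 to 0.116 for Cox18, -0.0443 to 0.163 for Cox19, -0.0495 to 0.0419 for Cox5a, -0.0121 to 0.161 for Cox7c, -0.0262 to 0.0866 for Cox8b, -0.106 to 0.0848 for Cycs, -0.00536 to 0.0769 for Sdhaf2, -0.154 to 0.0555 for Uqcc1 and -0.0481 to 0.0346 for Uqcrh-ps1 (adjusted p at least 0.749 where the sign turned). Of the 23 called members 11 kept their call in all 6 leave-outs, 8 in some and 4 in none. The number of arrays and dim probe sets near background limit what changes of this size can be seen.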
